A study of Homo sapiens with 4 samples.

Results

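FOXO and nutrient-sensing stress genes are a set of 10 genes named by symbol: the transcription factors FOXO1 and FOXO3, the sestrins SESN1, SESN2 and SESN3, the FOXO- and starvation-linked genes KLHL24, CCNG2 and IRS2, and the glucose-responsive genes TXNIP and ARRDC4. Of these 10 genes, 9 had a row among the 37515 genes listed, and all 9 passed the filter on low counts that left 14820 genes. The Ensembl identifier that the reference pairs with TXNIP had no row, and TXNIP was not analysed here. The genes were chosen with their values in this same comparison known (that KLHL24 and SESN3 were lower, for example). Their values are therefore given as a description, and no p-value is printed for them. Where one of these genes is said to pass or miss a threshold, it is the threshold applied to all tested genes. For the chosen genes it is not independent evidence of a change.

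RNA-seq was run on Caco-2 cells, a human colorectal carcinoma line that forms an enterocyte-like epithelium when it is kept confluent on a membrane. All cells were grown in transwells in MEM for 15 days, and IFNγ, a cytokine of activated T cells and natural killer cells, was added to the basal side (controls had medium alone). The groups were 2 unstimulated libraries at 0 h and 2 libraries from cells given 60 ng/ml IFNγ for 3 h. The sample titles of both groups carry the label WT (written wt for the unstimulated libraries). IFNγ and the 3 h that passed, with whatever handling went with them, cannot be told apart in this design. Nothing in the labels says that the 2 libraries of a group came from separate cultures, so the spread between them may be technical. In bulk RNA, fewer cells of a kind and less RNA per cell cannot be told apart either.

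FOXO factors are transcription factors that insulin signaling holds in check: the kinase AKT phosphorylates them and they leave the nucleus. When growth factors or nutrients are scarce they return to the nucleus and switch on genes of cell cycle arrest, autophagy and stress resistance. The sestrins belong to that response and restrain mTORC1, the kinase complex that couples amino acid supply to growth. A separate branch, the MondoA and ChREBP factors with their partner MLX, switches on TXNIP and ARRDC4 when glucose metabolites build up inside the cell.

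The libraries held 7171455 to 10365346 counts. Levels are given as CPM, counts scaled to a common library size by the TMM method, and 1 CPM corresponded to 7.14 to 10.3 counts. All 12 enterocyte and epithelial markers, among them VIL1, CDX2 and EPCAM, had counts in every library, summing to between 10100 and 12400 CPM. Leukocyte markers summed to at most 11.3 CPM, with PTPRC at no more than 2 counts in any library. COL1A1 made up nearly all of the fibroblast and endothelial markers, with 638 to 1842 counts, while COL1A2 and DCN had at most 1 count in any library. As a check of the labels, 9 of 10 IFNγ-induced genes passed the call threshold, all higher, and IRF1 went from 19.7 CPM to 1140 CPM. The threshold was an adjusted p-value under 0.05 from edgeR over all tested genes together with an absolute log2 fold change above 1.

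After 3 h of IFNγ, 4 of the 9 genes (KLHL24, CCNG2, FOXO3 and SESN3) were lower and ARRDC4 was higher, each past both the adjusted p-value and the fold threshold. Of all tested genes 4.40% passed both as lower and 2.88% as higher, or 7.28% in either direction. Over the 9 genes the median of the log2 fold changes stood at -0.79, beside -0.01 for all tested genes. These shares are printed for orientation only, since the comparison itself was used to choose the genes. The libraries of the 2 groups did not overlap for 8 of the 9 genes, IRS2 being the exception, with 6 lower and 2 higher. They did not overlap for 62.4% of all tested genes, 30.8% lower and 31.6% higher.

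**Figure D1:**
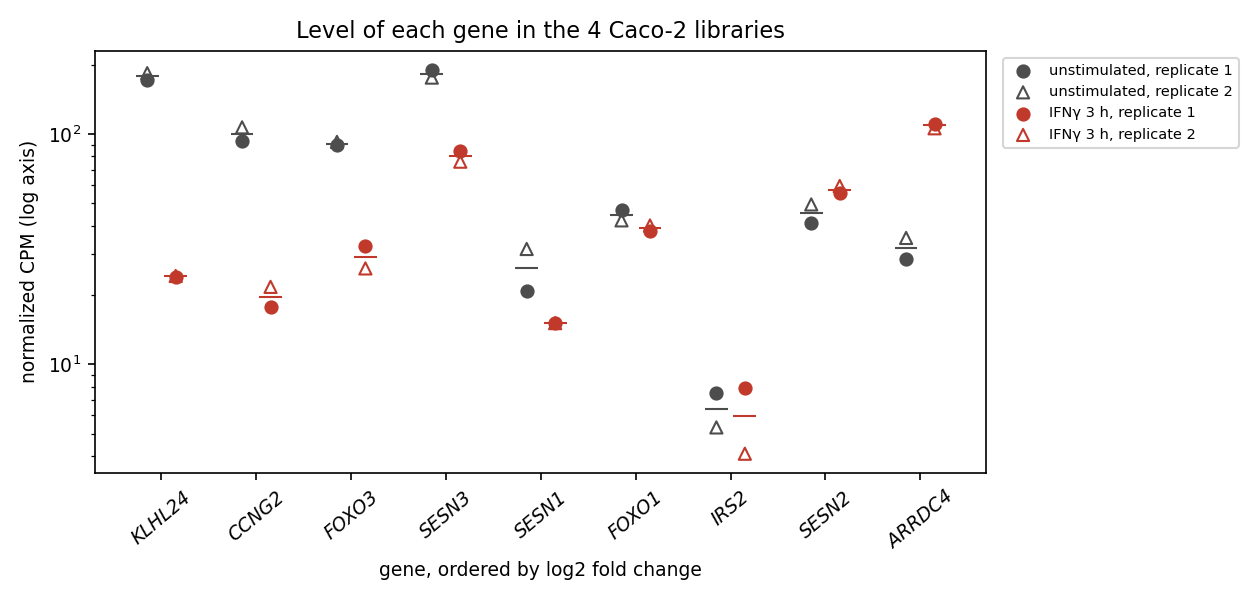
Normalized CPM (log axis) of the 9 genes in each of the 4 libraries, with unstimulated cells in grey, IFNγ-stimulated cells in red, a symbol for each replicate and a line at the mean of each group. KLHL24, CCNG2, FOXO3 and SESN3 sit clearly lower after 3 h of IFNγ, ARRDC4 sits higher, and the groups overlap for IRS2.

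FOXO3 and FOXO1, the main FOXO factors of most tissues, behaved unequally. FOXO3 (ENSG00000118689, plus strand of chromosome 6, 108881038 to 109005977 in GRCh37) had 89.6 and 92.5 CPM in the unstimulated libraries and 32.6 and 26.1 CPM after IFNγ. Both stimulated libraries were far below both unstimulated ones, a log2 fold change of -1.63 (standard error 0.147), or 3.09-fold lower. FOXO3B on chromosome 17 is a near-identical copy, and reads that fit both genes could be split or dropped; it had 10 to 21 counts per library, and FOXO3 had 191 to 920. FOXO1 (ENSG00000150907, minus strand of chromosome 13, 41129804 to 41240778) had 46.7 and 42.2 CPM before and 37.8 and 40.1 CPM after. Its groups did not overlap, but the gap between them was smaller than the spread of the unstimulated replicates, and the log2 fold change was -0.19 (standard error 0.135). In GENCODE 44, 22.7% of the exon bases of FOXO1 are shared with a long noncoding gene on the same strand. The annotation release used for the counts is not given, so whether that gene took reads from FOXO1 is not known. The level of FOXO1 may therefore be less certain. FOXO4, another FOXO factor that was not among the chosen genes, stood at 0.27 on the log2 scale and did not pass the test (adjusted p = 0.344 by edgeR). FOXO6 had at most 2 counts in any library, and a change was not detectable at this depth.

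KLHL24 encodes a substrate adaptor of the cullin-3 ubiquitin ligase. KLHL24 (ENSG00000114796, plus strand of chromosome 3, 183353398 to 183402307) had 172 and 184 CPM in unstimulated cells and 24.0 and 24.2 CPM after IFNγ. In counts, 1769 and 1316 reads became 247 and 177. This was a log2 fold change of -2.89 (standard error 0.124), or 7.40-fold lower, and rank 10 from the lowest among the 14820 tested genes. The replicates lay close together in both groups, and the same-numbered pairs gave -2.83 and -2.92.

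CCNG2 encodes cyclin G2, an unconventional cyclin that slows the cell cycle and a long-known FOXO target. CCNG2 (ENSG00000138764, plus strand of chromosome 4, 78078360 to 78354542) had 93.1 and 107 CPM before and 17.8 and 21.7 CPM after IFNγ. The log2 fold change was -2.35 (standard error 0.157), or 5.09-fold lower, at rank 34 from the lowest. Its paralog CCNG1, a p53 target, had a mean of 567 CPM before and 430 CPM after and did not pass the test (log2 fold change -0.40, adjusted p = 0.0857 by edgeR). In group means, FOXO3, CCNG2 and KLHL24 went from 91.0, 100 and 178 CPM to 29.3, 19.7 and 24.1 CPM.

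Of the sestrins, SESN3 was lower past both thresholds, while neither SESN1 nor SESN2 passed both. SESN3 (ENSG00000149212, minus strand of chromosome 11, 94898677 to 94965705), the sestrin most closely tied to FOXO activity, had 190 and 176 CPM before and 84.4 and 75.9 CPM after IFNγ. The log2 fold change of SESN3 was -1.19 (standard error 0.12), or 2.28-fold lower, and the pairs gave -1.17 and -1.21. SESN1 (ENSG00000080546, minus strand of chromosome 6, 109305512 to 109416049), first known as a p53 target, had 20.9 and 31.7 CPM before and 15.1 CPM in each stimulated library. Its unstimulated replicates differed by more than its lower replicate differed from the stimulated ones, and the log2 fold change was -0.79 (standard error 0.22). Without unstimulated replicate 1 it was -1.07, past both thresholds, and without unstimulated replicate 2 it was -0.46. SESN2 (ENSG00000130766, plus strand of chromosome 1, 28586029 to 28609002), a leucine sensor that is induced by amino acid and endoplasmic reticulum stress, had 41.1 and 49.5 CPM before and 55.3 and 59.5 CPM after. Its log2 fold change of 0.35 (standard error 0.143) was under the fold threshold and did not reach the adjusted p-value threshold.

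Set per kilobase of transcript, SESN3 made up 56.1% and 48.1% of the summed sestrin level in the unstimulated libraries and SESN2 33.5% and 37.3%. After IFNγ SESN2 made up 58.2% and 61.8% and SESN3 32.1% and 28.5%. The more abundant sestrin on this scale was thus SESN3 in both unstimulated libraries and SESN2 in both stimulated ones. These shares were not corrected for base composition; with a trend of log2 fold change with GC content and length taken out, the changes were smaller, at -0.58 for SESN3 and 0.06 for SESN2. The summed level was 35.5 and 38.3 CPM per kilobase before and 27.5 and 27.8 after.

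IRS2 (ENSG00000185950, minus strand of chromosome 13, 110405042 to 110438930), an adaptor that carries the signal of the insulin receptor to PI3K, had few counts. It had 7.5 and 5.32 CPM before and 7.88 and 4.09 CPM after IFNγ, from 30 to 81 counts per library. The replicates of a group differed by more than the groups did, and the log2 fold change of -0.09 had a standard error of 0.356. A change in IRS2 was not detectable at this depth. The related adaptor IRS1 had 119 and 126 CPM before and 160 and 167 CPM after, a difference of 0.42 on the log2 scale (adjusted p = 0.0364 by edgeR), under the fold threshold.

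ARRDC4 encodes an arrestin-domain protein that, like TXNIP, limits glucose uptake and is raised by MondoA. ARRDC4 (ENSG00000140450, plus strand of chromosome 15, 98503933 to 98517063) had 28.6 and 35.4 CPM in unstimulated cells and 111 and 106 CPM after IFNγ. Both stimulated libraries were well above both unstimulated ones, a log2 fold change of 1.77 (standard error 0.145), or 3.41-fold higher, at rank 137 from the highest. The pairs gave 1.95 and 1.58. Among the other arrestin-domain genes, ARRDC3 was lower (log2 fold change -0.81, adjusted p = 0.0205 by edgeR) and ARRDC2 higher (0.75, adjusted p = 0.0449 by edgeR), both under the fold threshold. ARRDC3 passed it without IFNγ replicate 1 (-1.03) and stood at -0.35 with a GC and length trend removed. ARRDC1 stood at -0.13 (adjusted p = 0.62 by edgeR), and ARRDC5 had 0 counts in every library. The glucose-sensing factors did not pass the test: MLXIP, which encodes MondoA, had a log2 fold change of -0.09, MLXIPL, which encodes ChREBP, had -0.36, and their partner MLX had 0.32 (adjusted p = 0.642, 0.443 and 0.112 by edgeR).

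**Figure D2:**
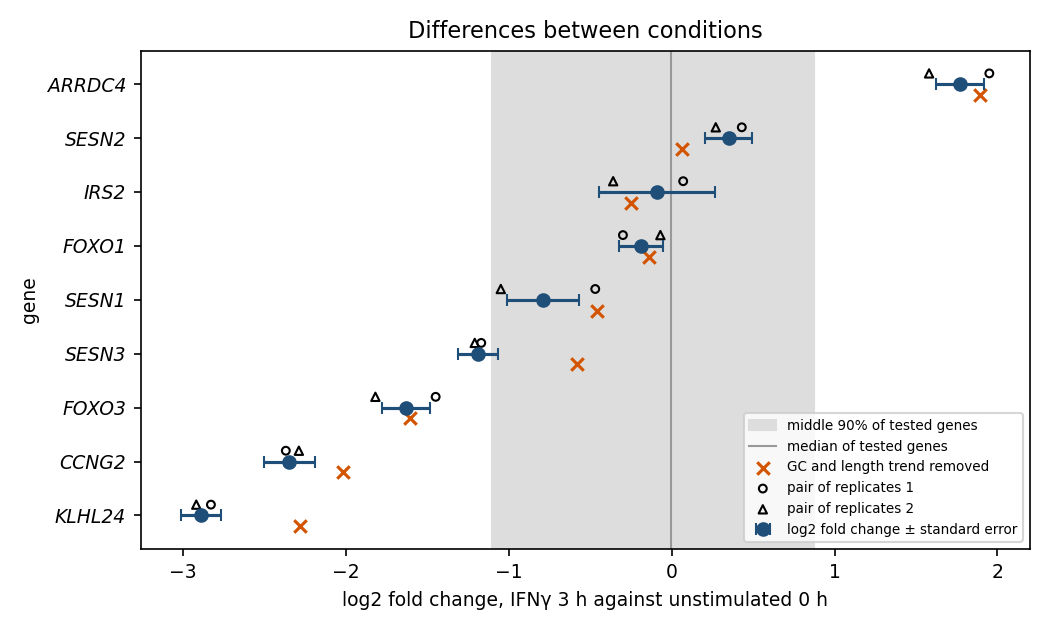
Log2 fold change (IFNγ 3 h against unstimulated 0 h) of the 9 genes with standard errors, the same-numbered pairs as open symbols, and the value after removal of a GC and length trend as a cross, over a grey band that holds the middle 90% of the 14820 tested genes. KLHL24, CCNG2, FOXO3 and SESN3 lie below the band and ARRDC4 above it, and the cross of SESN3 (-0.58) lies inside the band.

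The bases before the transcription start are shown for the called genes whose window held a searched motif, since members of one pathway could share one; the window of FOXO3 held none. The windows are the 250 bases before the RefSeq start in GRCh38.p14, written 5′ to 3′ on the strand of the gene, with capitals for motif matches. The motifs searched on both strands were GTAAACA (FOXO core), CAAAACA (core of the insulin response element), CACGTG (E-box), the carbohydrate response element type (CACGNG repeated after 5 bases, which can overlap an E-box) and TTCNNNGAA (GAS, the gamma-activated site type).
KLHL24 (chr3:183635373-183635622, plus strand): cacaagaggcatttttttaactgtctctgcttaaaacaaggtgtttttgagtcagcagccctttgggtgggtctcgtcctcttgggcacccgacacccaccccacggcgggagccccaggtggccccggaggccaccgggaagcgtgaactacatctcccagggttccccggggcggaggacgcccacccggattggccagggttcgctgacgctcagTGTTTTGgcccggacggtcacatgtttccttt
CCNG2 (chr4:77156957-77157206, plus strand): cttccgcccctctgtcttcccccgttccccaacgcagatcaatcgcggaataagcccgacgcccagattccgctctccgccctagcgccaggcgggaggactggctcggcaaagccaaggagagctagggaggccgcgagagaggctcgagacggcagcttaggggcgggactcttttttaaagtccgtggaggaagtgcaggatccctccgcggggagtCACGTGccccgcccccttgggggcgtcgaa
SESN3 (chr11:95232476-95232725, minus strand): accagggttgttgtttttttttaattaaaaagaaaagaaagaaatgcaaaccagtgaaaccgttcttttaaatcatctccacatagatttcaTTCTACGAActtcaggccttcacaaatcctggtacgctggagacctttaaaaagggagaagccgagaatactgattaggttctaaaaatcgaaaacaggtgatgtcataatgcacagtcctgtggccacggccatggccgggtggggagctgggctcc
ARRDC4 (chr15:97960453-97960702, plus strand): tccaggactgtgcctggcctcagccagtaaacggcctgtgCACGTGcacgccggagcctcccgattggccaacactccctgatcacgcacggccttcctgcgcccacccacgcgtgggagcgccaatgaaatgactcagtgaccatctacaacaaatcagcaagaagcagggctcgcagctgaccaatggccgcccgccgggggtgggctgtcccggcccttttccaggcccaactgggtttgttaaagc
The capitals mark the reverse strand of CAAAACA in KLHL24, the E-box in CCNG2 and ARRDC4, and TTCTACGAA, a GAS type, in SESN3.

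No motif was shared by more than 2 of the 10 promoters. The E-box was in 2 of them (CCNG2 and ARRDC4) and in 6.345% of all 35116 promoters, and CAAAACA was in 2 (KLHL24 and IRS2) and in 4.303% of all. The GAS type was in SESN3 alone, at position -158 from the start, and in 6.567% of all promoters. The FOXO core was found in the promoter of TXNIP alone among the 10, and in 2.979% of all promoters. The promoter of TXNIP also held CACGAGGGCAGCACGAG, a carbohydrate response element type that occurred in 16 of the 35116 promoters. A match here is a description of letters in a window, and the counts say nothing of TXNIP itself. The RefSeq start of SESN3 differs from that of its canonical GENCODE transcript.

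The order of levels among the 9 genes was taken per kilobase of canonical transcript. In unstimulated cells KLHL24 was the highest at 24.3 ± 1.17 CPM per kilobase (SD, n = 2), followed by SESN3 at 19.2 ± 1.03 and CCNG2 at 18.3 ± 1.82, whose replicates overlapped. SESN2 at 13.1 ± 1.71 and FOXO3 at 12.5 ± 0.280 overlapped as well, as did ARRDC4 at 7.89 ± 1.19 and FOXO1 at 7.69 ± 0.559. SESN1 at 4.64 ± 1.34 and IRS2 at 0.786 ± 0.188 were the lowest. After 3 h of IFNγ ARRDC4 was the highest at 26.8 ± 0.851, followed by SESN2 at 16.6 ± 0.846, SESN3 at 8.38 ± 0.633 and FOXO1 at 6.74 ± 0.279. FOXO3 at 4.02 ± 0.632 overlapped with CCNG2 at 3.61 ± 0.503, which overlapped with KLHL24 at 3.29 ± 0.0121. SESN1 at 2.67 ± 0.00858 and IRS2 at 0.734 ± 0.328 remained lowest. KLHL24 thus went from the top of this order to the seventh place.

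**Figure D3:**
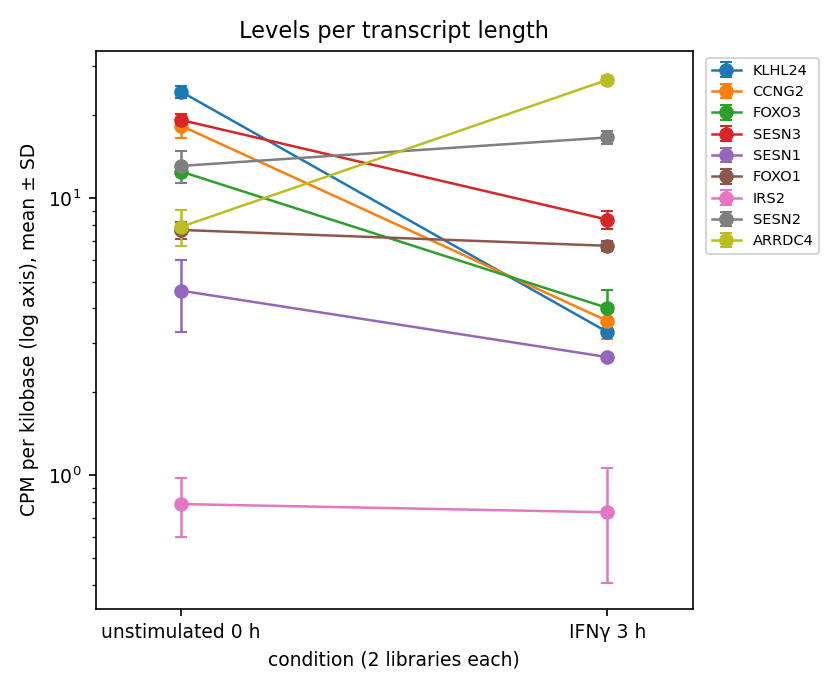
Mean level per kilobase of transcript (log axis) with SD over 2 libraries for each gene, in unstimulated cells on the left and after 3 h of IFNγ on the right, one line per gene. The lines of KLHL24 (24.3 to 3.29) and ARRDC4 (7.89 to 26.8) cross those of most other genes, and those of FOXO1 and IRS2 are nearly flat.

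Base composition moved with the comparison as a whole. Among 14518 tested genes with a known transcript sequence, GC-rich transcripts tended to higher log2 fold changes (Spearman rho = 0.436, across genes, which share the 4 libraries). KLHL24 and SESN3 have GC-poor transcripts, with 36.3% and 37.1% GC, which put them at the 3.28 and 5.46 percentiles of tested genes. CCNG2 (40.5%) and SESN1 (40.6%) lie at the 18.1 and 18.5 percentiles, and FOXO3 (48.8%) near the middle at the 51.2 percentile. When each library was freed of its trend with GC content and length, KLHL24 had a log2 fold change of -2.28, CCNG2 -2.02, FOXO3 -1.61 and ARRDC4 1.89, all still past the fold threshold. SESN3 had -0.58 and was no longer past it, SESN1 had -0.46, and SESN2 was at 0.06. With this setting 3 of the 9 genes were called lower, beside 2.45% of all 14518 genes, and 1 higher, beside 2.45%. Whether the trend is technical was not tested.

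**Figure D4:**
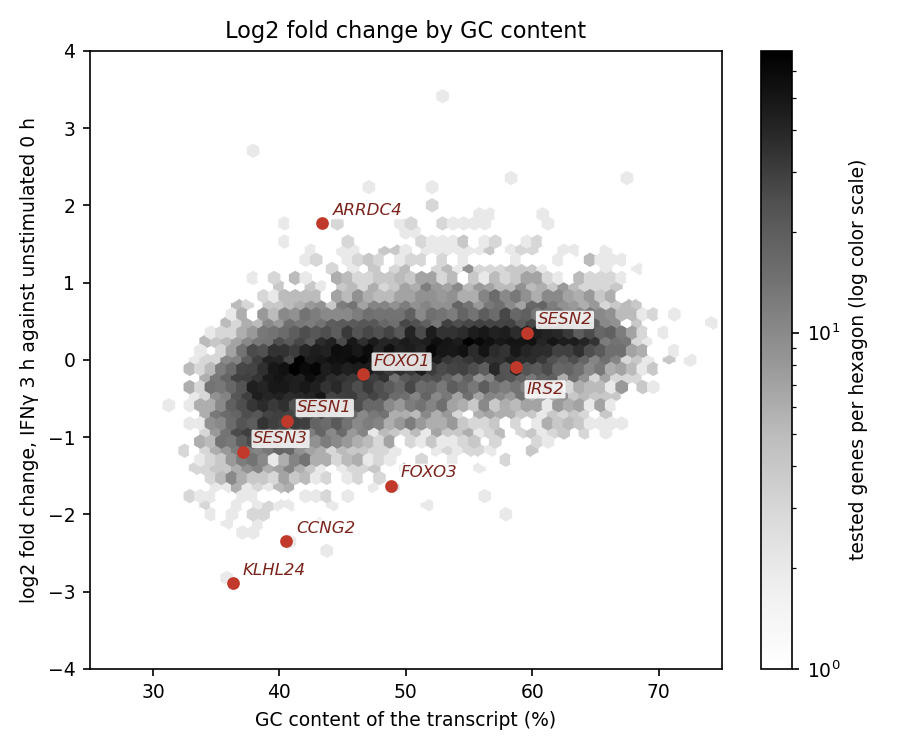
Log2 fold change (IFNγ 3 h against unstimulated 0 h) against the GC content of the transcript in percent, with tested genes binned into hexagons (darker for more genes, log color scale; genes beyond a log2 fold change of 4 are not drawn) and the 9 genes as red points. The cloud rises with GC content; SESN3 and SESN1 lie within it, and KLHL24, CCNG2, FOXO3 and ARRDC4 lie at or beyond its edge.

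The surrounding pathways were described with 7 lists that leave out the 10 genes. They held 165 genes, of which 162 had a row and 149 were tested. Of the tested genes 8 were called higher (5.37%) and 12 lower (8.05%), beside 2.88% and 4.40% of all tested genes. At an adjusted p-value under 0.05 alone, 21 were higher and 29 lower (14.1% and 19.5%), beside 9.02% and 11.0% of all. Their median was 0.05 on the log2 scale. The lists share some genes, and RICTOR and PIK3CA, for example, stand in more than one. The lists, too, were chosen with earlier results of these data known. Their shares and adjusted p-values are therefore a description and not independent evidence of a change.

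Of 24 tested FOXO target genes, 5 were called lower (20.8%, beside 4.40% of all tested genes) and 1 higher (4.17%, beside 2.88%). At an adjusted p-value alone 10 were lower (41.7%, beside 11.0%) and 1 higher (4.17%, beside 9.02%) by edgeR's test. MXI1, a MYC antagonist, had 71.8 and 73.6 CPM before and 19.5 and 21.6 CPM after IFNγ (log2 fold change -1.83, adjusted p = 0.000633 by edgeR). The autophagy gene ATG14 had -1.35, PCK1, the gluconeogenic enzyme, -1.37, and RICTOR, a subunit of mTORC2, -1.29 (adjusted p = 0.00531, 0.00825 and 0.0108 by edgeR). BCL2L11, which encodes the pro-apoptotic protein BIM, was just past the fold threshold at -1.0. It fell short at -0.96 with upper quartile scaling and at -0.98 with no filter on low counts. With the GC and length trend removed it stood at -0.93 (-0.94 with the replicate block added). It also fell short at -0.95 without unstimulated replicate 1 and at -0.98 without IFNγ replicate 2. RICTOR also stood at -0.98 without IFNγ replicate 2. The cell cycle inhibitors CDKN1B (p27) and RBL2 were lower by less, with -0.55 and -0.64 (adjusted p = 0.0472 and 0.0225 by edgeR). So were BTG1, BCL6 and PIK3CA, with -0.52, -0.60 and -0.73 (adjusted p = 0.0221, 0.0224 and 0.0332 by edgeR). With the GC and length trend removed BTG1 stood at -0.12, PIK3CA at -0.06 and BCL6 at -0.76. TRIB1, a pseudokinase, went the other way, from 13.9 and 18.1 CPM to 63.9 and 81.5 CPM, 2.19 on the log2 scale (adjusted p = 0.00117 by edgeR). Several classical targets had too few counts to be tested, among them PDK4 with at most 4 counts and FBXO32 with at most 10. SOD2, another target, was not tested because the Ensembl identifier paired with it had no row. With the GC and length trend removed, 3 of the 24 were called lower (12.5%, beside 2.45% of all genes) and 7 were lower at an adjusted p-value alone (29.2%, beside 8.16%).

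Of 35 tested genes of amino acid sensing and mTORC1, 2 were called lower (5.71%) and 0 higher, beside 4.40% and 2.88% of all tested genes. At an adjusted p-value alone 4 were lower and 3 higher by edgeR's test (11.4% and 8.57%, beside 11.0% and 9.02% of all). The median was 0.09. DDIT4, which encodes REDD1, an inhibitor of mTORC1 that hypoxia and glucocorticoids induce, had 89.2 and 90.1 CPM before and 21.0 and 24.2 CPM after IFNγ (log2 fold change -1.99, adjusted p = 0.000469 by edgeR). BMT2, which encodes the S-adenosylmethionine sensor SAMTOR, had -1.47 (adjusted p = 0.00225 by edgeR), and -0.99 with the GC and length trend removed. TSC1 and FNIP1 were lower by less (-0.83 and -0.78), and RRAGA and RRAGC, which encode Rag GTPases, were higher (0.77 and 0.53). TSC1 passed the fold threshold without IFNγ replicate 1 (-1.05). The kinase MTOR itself had -0.50 (adjusted p = 0.0523 by edgeR) and its partner RPTOR 0.14.

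Of 20 tested genes of insulin, PI3K and AKT signaling, 1 was called higher and 2 lower. SGK1, an AKT-related kinase that also phosphorylates FOXO factors, had 26.1 and 27.3 CPM before and 68.2 and 64.9 CPM after IFNγ (log2 fold change 1.32, adjusted p = 0.00152 by edgeR). The lipid phosphatase INPP4B and RICTOR were called lower, and both fell short of the fold threshold with the GC and length trend removed (-0.64 and -0.67). INPP4B also lost the adjusted p-value threshold without unstimulated replicate 1 (-1.18), and RICTOR the fold threshold without IFNγ replicate 2 (-0.98). AKT1 and AKT2 had 0.06 and 0.46 and did not pass the test. Among 18 tested FOXO partners and regulators 15 had a positive value (83.3%, beside 49.4% of all tested genes), with a median of 0.14. Only 1 was called (5.56%, beside 4.40% of all tested genes called lower): STK3, an MST kinase, was lower at -1.25 (-0.90 with the trend removed). The 14-3-3 genes YWHAG and YWHAH, whose products hold phosphorylated FOXO in the cytoplasm, had 0.69 and 0.79 (adjusted p = 0.00873 and 0.0236 by edgeR). The other 14-3-3 genes, YWHAB, YWHAE, YWHAQ, YWHAZ and SFN, had 0.11 to 0.37 and did not pass the test (adjusted p = 0.248 to 0.668 by edgeR).

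Of 15 tested AMPK genes, 2 were called higher and 1 lower (13.3% and 6.67%, beside 2.88% and 4.40% of all tested genes). The pair of β subunits moved in opposite directions. PRKAB1 went from 40.9 and 34.6 CPM to 74.0 and 79.8 CPM, a log2 fold change of 1.02, and PRKAB2 from 149 and 139 CPM to 64.9 and 55.9 CPM, a log2 fold change of -1.25 (adjusted p = 0.00391 and 0.00161 by edgeR). The AMPK-related kinase NUAK2 was higher at 1.16. With the GC and length trend removed the values were 0.80, -0.97 and 0.89, under the fold threshold. PRKAB1 also fell short of it without unstimulated replicate 2 (0.92) and without IFNγ replicate 2 (0.95).

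Of 21 tested genes of glucose sensing and handling, 2 were called lower (9.52%) and 0 higher, beside 4.40% and 2.88% of all tested genes. At an adjusted p-value alone 5 were lower and 2 higher by edgeR's test (23.8% and 9.52%, beside 11.0% and 9.02% of all). HK2, a hexokinase, had 207 and 214 CPM before and 75.4 and 98.4 CPM after IFNγ (log2 fold change -1.28, adjusted p = 0.00245 by edgeR). PFKFB3, a regulator of glycolysis, had -1.07 and the glucose transporter gene SLC2A3 -0.93 (adjusted p = 0.00211 and 0.0223 by edgeR), while SLC2A1 had 0.42 and did not pass the test. SLC2A3 stood at 388 and 634 CPM in the stimulated libraries and passed the fold threshold without IFNγ replicate 2 (-1.35).

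Of 19 tested p53 targets and growth arrest genes, 4 were called higher (21.1%) and 0 lower, beside 2.88% and 4.40% of all tested genes. At an adjusted p-value alone 6 were higher and 2 lower by edgeR's test (31.6% and 10.5%, beside 9.02% and 11.0% of all). AEN, an apoptotic nuclease, had a log2 fold change of 1.73, the kinase PLK3 2.16, PHLDA3, an AKT inhibitor, 1.44 and TIGAR, a regulator of glycolysis, 1.35 (adjusted p = 0.00119, 0.00202, 0.0186 and 0.0165 by edgeR). TIGAR rested on unequal unstimulated replicates, 7.79 and 14.6 CPM, and had 0.93 without replicate 1 of that group. CDKN1A (p21) had 0.88, while the antiproliferative genes BTG2 and TOB1 were lower, at -0.82 and -0.59 (adjusted p = 0.00364, 0.011 and 0.0123 by edgeR). With the GC and length trend removed, BTG2 (-1.02) and BBC3 (-1.16) passed the fold threshold as lower.

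**Figure D5:**
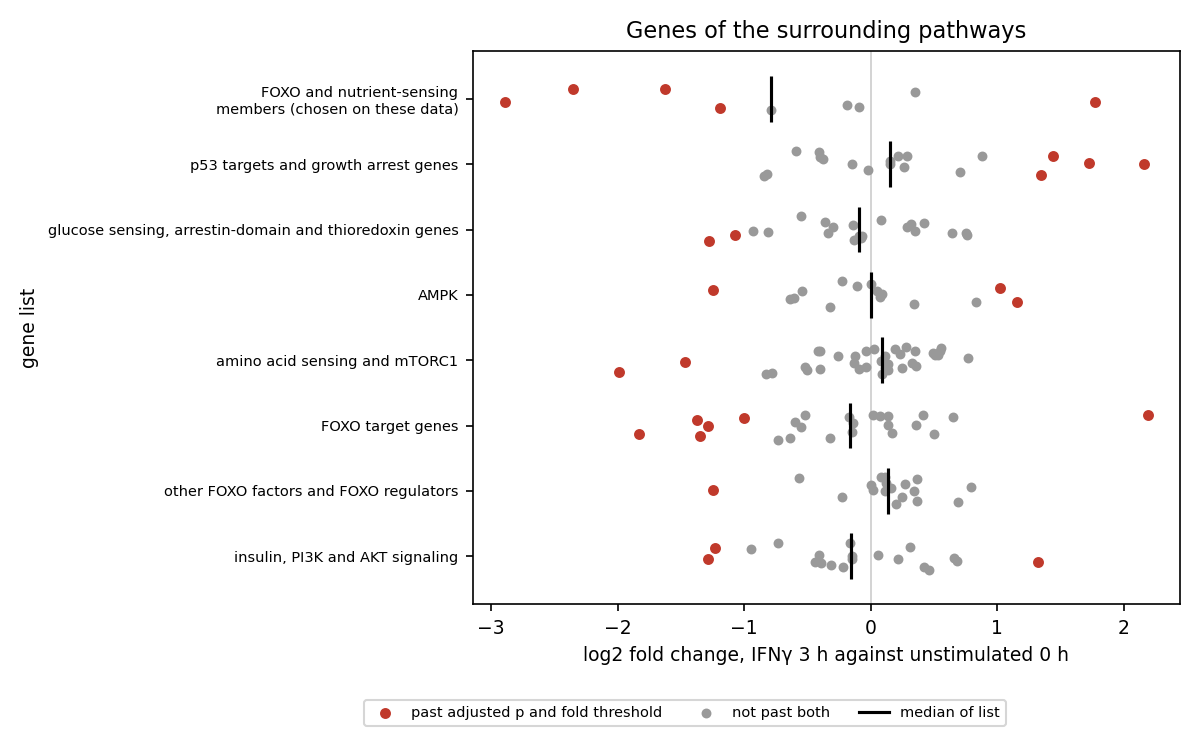
Log2 fold change (IFNγ 3 h against unstimulated 0 h) of the tested genes of each of the 7 pathway lists and of the 9 genes, 1 point per gene, in red where a gene passed both thresholds, with a line at the median of each list. The list medians lie between -0.16 and 0.15, and that of the 9 genes, which were chosen on these data, at -0.79.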

How the data were processed

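The deposited values are raw read counts by Ensembl gene, made by the authors for each of 4 libraries without pooling. Libraries were made with an Illumina TruSeq kit, and the submitters' processing notes name HISAT 0.5.1 and HTSeq 0.6.1p1; the build, annotation release and strand setting are not given in the sources used here. Overlapping and near-identical genes are therefore uncertain. Differential expression was tested with edgeR 4.0.16 (R 4.3.3) by its quasi-likelihood test with TMM scaling, the default filter on low counts and Benjamini-Hochberg adjustment. Standard errors were taken as |log2 fold change| over the root of F, and values of pairs used a prior count of 2. Replicates differed by more than sampling noise (chi-square per degree of freedom of 7.38 and 8.44). Symbols, coordinates, transcript length and GC content came from GENCODE 44 mapped to GRCh37, which paired 96.5% of identifiers, and promoters from RefSeq (GRCh38.p14). The GC and length trend was removed by a loess fit per library (span 0.3). Other alternatives were DESeq2 1.42.0, other scalings and filters, the replicate block and each library left out. The text names every chosen gene, the called genes of each pathway list, up to 4 more with the smallest adjusted p-values under 0.05, paralogs and the MLX factors. AKT1, AKT2, MTOR, RPTOR, RRAGC, SLC2A1, BBC3, CDKN1B, PDK4, FBXO32 and the other 14-3-3 genes were added after their values were seen. The genes and lists were chosen with earlier results of these data known. The fits were tested on simulated data.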

Additional observations from a re-analysis of the deposited data

How the results depend on the processing

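Precision is limited by 2 libraries per condition. KLHL24, CCNG2, FOXO3 and ARRDC4 passed the fold threshold under each alternative run, and SESN3 under each but the GC and length correction (-0.58), alone or with the replicate block. Over all alternatives KLHL24 ran from -2.94 to -2.28, CCNG2 from -2.51 to -2.02, FOXO3 from -1.81 to -1.50 and ARRDC4 from 1.62 to 1.94. IRS2 changed sign with a library left out, from -0.67 without IFNγ replicate 1 to 0.26. SESN1 ran from -1.07 to -0.43 and was called lower without unstimulated replicate 1. Without the fold threshold, a setting added for the 9 genes after the data were seen, 5 of them were lower and 1 higher. Without it 1337 of all tested genes were higher and 1626 lower, and of the pathway genes 21 and 29. Under the GC and length correction 355 genes were called higher and 355 lower, against 427 and 652, and with the replicate block added to it 434 and 599; the cause was not tested. Leaving out single libraries, the genes called lower numbered 554 to 1112, the latter without IFNγ replicate 1, where the lone library is assumed to vary like the other group. The samples share only a replicate number. Same-numbered deviations correlated across genes (r = 0.415), and with the replicate block 492 genes were called higher and 896 lower, with 1 and 4 of the 9 genes and 8 and 12 pathway genes as before. Of 63 other genes refitted, 32 values lost the call and 12 gained it among their refits. No value changed sign where the gene was called in either fit. Values without a call could change sign: the AMPK gene PRKAA2 went from -0.61 to 0.10 with the GC and length trend removed.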
